A study of Bos taurus with 55 samples.

Results

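Cell death regulators and caspases were followed in mammary biopsies of 28 lactating Holstein-Friesian cows fed plant oils and then a control diet. The set was listed as 9 genes: BAX, BAD, BAK1, BID, BCL2L1, MCL1, CASP4, CASP8 and FAS. A member was taken through the probe set built on its RefSeq transcript, and 5 of the 9 had one (BAD, BCL2L1, MCL1, CASP4 and FAS), each with 1 probe set among the 10680 tested. BAX, BAK1, BID and CASP8 had no matching probe set and were not analysed here, so the pore-forming proteins and the initiator caspase of the pathway are outside what follows.

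For 23 days (period I), 2.7% of the diet was an added oil, with 7 cows per oil. Rapeseed oil supplied mainly oleic acid, soybean oil linoleic acid and linseed oil alpha-linolenic acid (ALA), and the last group had all 3 oils in equal parts. For the next 28 days (period II) every cow received the control diet, which held no added oil. In both periods the cows grazed a ryegrass and white clover pasture by day and received a ration of maize silage, grass silage and concentrate at night. The gland was sampled when each period closed (176 and 204 mean days in milk), and 27 cows had arrays from both samplings, since 1 linseed cow lacked the one from period II. Oil always came before control, so the oil, the sequence of feeding and advancing lactation cannot be told apart.

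Cells die by apoptosis along 2 routes that meet at the caspases, proteases that take a cell apart from within. In the mitochondrial route, BCL2 family proteins either open the outer mitochondrial membrane or keep it closed, and BH3-only proteins tip that balance by binding the protective members: BAD binds BCL2L1 (BCL-XL), whereas others bind MCL1. In the other route, death receptors such as FAS at the cell surface activate caspases directly, while CASP4, whose bovine gene was long called CASP13, belongs to the inflammatory caspases that respond to bacterial lipopolysaccharide in human cells. Milk-secreting epithelium depends on survival signals during lactation and is removed largely by cell death after weaning, and studies in mice give BCL-XL and MCL1 a role in keeping secretory cells alive.

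The arrays were checked before the members. The milk protein genes, which define secreting alveolar cells, had a mean log2 intensity of 12.1 to 13.8 over the period I arrays and 11.9 to 13.8 over those of period II, and so were high in every biopsy. Of the 55 arrays, 7 stood apart, with a mean correlation to the other arrays of 0.911 to 0.951 against at least 0.961 for the other 48, and they came from cows 1, 2, 5, 10, 12 and 15. The lowest milk protein mean of each period was in an array apart, 12.1 in cow 12 and 11.9 in cow 15. The median was 13.7 in both periods. Not every array apart was as low, with 13.5 for cow 5 in period I and for cow 2 in period II. The array names carry 2 prefixes and a running number. The first prefix held 25 arrays of period I and 2 of period II, the second 3 and 25, and the running number was higher by 28 in period II in each cow. Both period II arrays with the first prefix stood apart. In a biopsy of mixed tissue, fewer cells of a type and less RNA per cell cannot be told apart.

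BAD was the only 1 of the 5 members called between the periods, and it was lower while the oils were fed. Across all tested probe sets, 34.4% were called in this comparison, 15.6% as lower and 18.8% as higher in the oil period, so 1 call among 5 genes is close to the share over the whole array and is not a result about the members as a group. The median change of the 5 members was -0.07 on the log2 scale, against 0.029 over all probe sets. Of the other members, BCL2L1 had an unadjusted p under 0.05 but was not called, and MCL1, CASP4 and FAS had mean changes close to 0 in this fit, with wide spread between cows. Cows differed in how many of the 5 members were lower on oil: all 5 in 4 cows, 4 in 3 cows, 3 in 11 cows, 2 in 7 cows and 1 in 2 cows.

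BAD encodes a BH3-only protein that, when not phosphorylated by survival kinases, binds and blocks BCL-XL. Its log2 intensity in period I had a lowest value of 2.34 (cow 13), a median of 3.30 and a highest value of 3.88 (cow 16). In period II the lowest was 2.93 (cow 5), the median 3.60 and the highest 4.07 (cow 15). The groups overlapped, but 23 of 28 period I biopsies lay below the period II median, 5 lay below the lowest period II biopsy and 0 lay above the highest. Within cows, BAD fell by 0.36 ± 0.076 on the log2 scale (SE, n = 27 cows, limma, 95% interval -0.52 to -0.21, adjusted p = 0.000543), which is 1.29-fold lower on oil. It was lower in 21 of 27 cows, and the change ran from -1.08 in cow 13 to 0.40 in cow 16. By p, BAD stood at place 902 of 10680.

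The signal of BAD was dim, under a log2 intensity of 4 in 54 of 55 arrays, although its mean lay near the middle of all probe sets (percentile 50.8). In the plot of levels by cow, most BAD lines rise from the oil to the control biopsy, whereas the lines of MCL1, CASP4 and FAS cross in both directions.

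**Figure D1:**
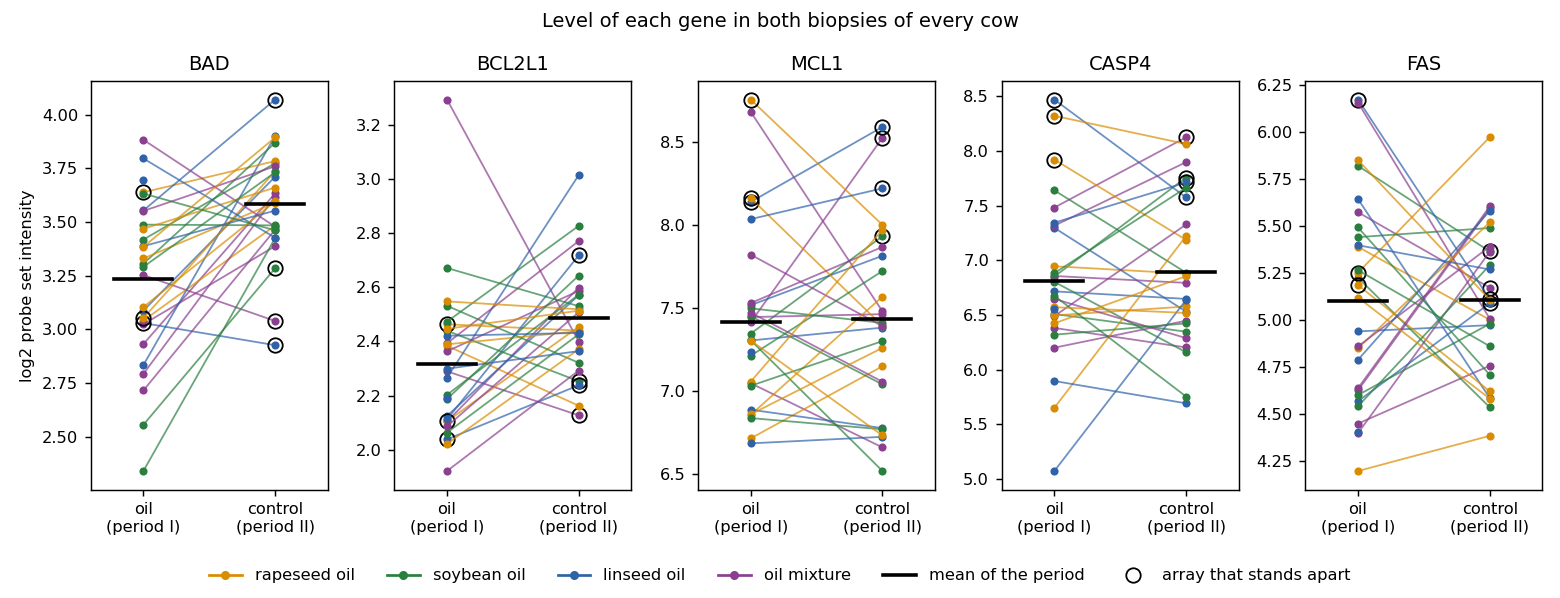
Log2 probe set intensity (vertical axis) of the 5 measured members in both biopsies of every cow, with oil and control on the horizontal axis, 1 line per cow coloured by oil, black bars at the period means and circles around arrays that stand apart. BAD was lower on oil in 21 of 27 cows and BCL2L1 in 19, while MCL1, CASP4 and FAS were lower in 15, 12 and 14.

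On each oil alone, BAD was lower on average but was not called. With rapeseed oil it had a change of -0.39 ± 0.16 (SE, limma, 95% interval -0.71 to -0.066, adjusted p = 0.155), and all 7 of 7 cows were lower, from -0.68 to -0.15. With soybean oil the change was -0.43 ± 0.16 (interval -0.75 to -0.11, adjusted p = 0.0679) and 5 of 7 cows were lower. Linseed oil gave -0.32 ± 0.17 (interval -0.67 to 0.032, adjusted p = 0.317, lower in 4 of 6 cows) and the mixture -0.32 ± 0.16 (interval -0.64 to 0.0045, adjusted p = 0.376, lower in 5 of 7). The 4 estimates lay between -0.43 and -0.32, and the test of a difference between oils gave an adjusted p of 0.992 (limma's moderated F). The rapeseed cows were the least spread, with an SD of 0.20, against 0.43 to 0.52 on the other oils.

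The fall of BAD depended on how the arrays were set against each other. Without the 6 cows that had an array apart the change was -0.39 (limma, adjusted p = 0.00146), and leaving out 1 cow at a time gave -0.39 to -0.34, called in all 27 fits. With each array centred on its median it was -0.30 (adjusted p = 0.00273). With 16 added to the values before log2 it was -0.14 (adjusted p = 0.000617), still called but smaller. With the array-name prefix added to the cow the change was -0.54 (adjusted p = 0.0392), a value that comes only from the 5 cows whose arrays share a prefix. Those 5 cows had changes of 0.21 (cow 1), -0.73 (cow 2), -1.07 (cow 7), -0.36 (cow 9) and -0.75 (cow 14). The fits within a prefix left the cow out, so the arrays of those 5 cows were treated there as unpaired. Within the second prefix the difference was -0.63 (3 against 25 arrays, adjusted p = 0.0197), and within the first it was 0.10 (25 against 2 arrays, both of these apart, adjusted p = 0.807). With the running number of the arrays as a covariate and the cow left out it was 0.17 (adjusted p = 0.458). The periods share no running number, so this value depends on a common slope carried from the arrays of one period to those of the other. The call is therefore lost, and the direction turned, within the first prefix and under the running number.

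BAD also moved along the running number within period I. Among the 25 period I arrays not apart, Pearson's r between BAD and array number was 0.561 (permutation, adjusted p = 0.035) and Spearman's rho 0.598 (adjusted p = 0.0254), 0.542 without the 2 farthest arrays and 0.579 within the 22 arrays of the first prefix. The slope was 0.26 log2 units per 10 arrays. In period II, r was 0.0269 over 23 arrays (adjusted p = 0.954, rho = -0.00889, adjusted p = 0.989) and the slope 0.0058. In period I the running number is also the number of the cow, so array order and differences between cows cannot be told apart. BAD in period I was also lower where the erythrocyte marker list was higher (r = -0.659, permutation, adjusted p = 0.00967, rho = -0.59, adjusted p = 0.0296), with r of -0.746 within the first prefix and -0.41 without the 2 farthest arrays. In period II it was -0.183 (adjusted p = 0.592, rho = -0.241, adjusted p = 0.514). The erythrocyte list was dim, with a mean log2 level in period I of 3.10 for HBB, 1.68 for ALAS2, 1.66 for AHSP and 1.34 for SLC4A1. The part of these relations in the fall of BAD was not tested. CASP4 had slopes of -0.32 and -0.23 per 10 arrays in periods I and II, and MCL1 -0.15 and -0.13. For FAS they were -0.15 and -0.041, and for BCL2L1 -0.020 and 0.019. The r of CASP4 with the running number in period I was -0.475 (permutation, adjusted p = 0.0884, rho = -0.462, adjusted p = 0.104).

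**Figure D2:**
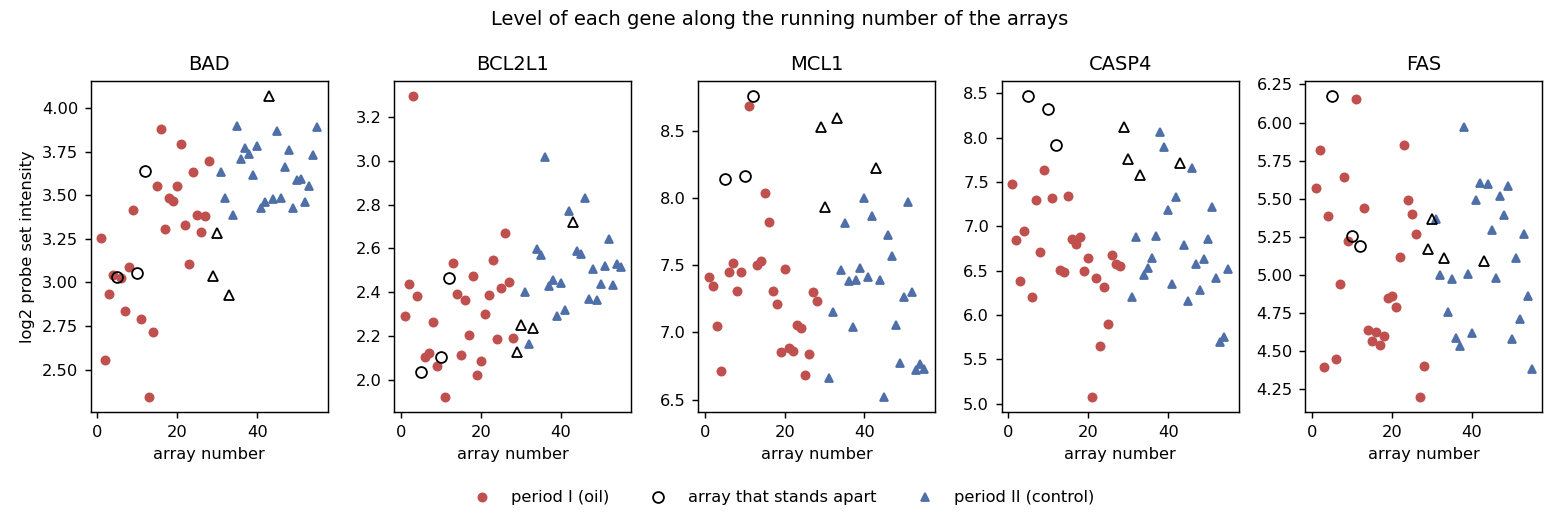
Log2 probe set intensity (vertical axis) of each measured member against the running number of the arrays (horizontal axis), with circles for period I, triangles for period II and open symbols for arrays that stand apart. BAD rose along the period I arrays by 0.26 per 10 arrays, against 0.0058 along those of period II. The slopes of CASP4 were -0.32 and -0.23.

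BCL2L1 encodes BCL-XL, a guardian of the mitochondrial membrane and a main binding partner of BAD. In period I its log2 intensity had a lowest value of 1.92 (cow 11), a median of 2.29 and a highest value of 3.29 (cow 3), and in period II 2.13 (cow 1), 2.45 and 3.02 (cow 8). The groups overlapped: 22 of 28 period I biopsies lay below the period II median, while cow 3 lay above every period II biopsy. The within-cow change was -0.17 ± 0.066 (SE, n = 27 cows, limma, 95% interval -0.30 to -0.030, adjusted p = 0.0528) and BCL2L1 was lower in 19 of 27 cows. It was not called. Without cow 3, whose change of 0.90 was the highest of all, it was -0.21 (adjusted p = 0.00565) and called. It was also called without cow 1, 2, 4, 12, 13 or 26, without the cow in the fit (-0.17, adjusted p = 0.0482) and with equal weight for each oil (-0.17, adjusted p = 0.0496). It was not called with each array centred on its median (-0.10, adjusted p = 0.229), with 16 added to the values before log2 (-0.039, adjusted p = 0.0972), leaving out the 6 cows that had an array apart (-0.18, adjusted p = 0.0783) or with the running number in place of the cow (-0.066, adjusted p = 0.745). With the prefix added to the cow it was -0.17 (adjusted p = 0.468). Within the first prefix, against 2 arrays apart, the difference was 0.14 (adjusted p = 0.642), and within the second it was -0.32 (adjusted p = 0.134). BCL2L1 lay under the array median in 54 of 55 arrays, with its mean at percentile 31.3 of all probe sets.

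By oil, the widest BCL2L1 change was with linseed oil. It was -0.35 ± 0.14 (SE, limma, 95% interval -0.64 to -0.054, adjusted p = 0.198) and lower in 6 of 6 cows, from -0.75 (cow 8) to -0.010 (cow 25). Rapeseed oil gave -0.08 ± 0.13 (interval -0.35 to 0.19, adjusted p = 0.778), soybean oil -0.14 ± 0.13 (interval -0.41 to 0.13, adjusted p = 0.498) and the mixture -0.12 ± 0.13 (interval -0.39 to 0.15, adjusted p = 0.742). None of the 4 was called, and the test of a difference between oils had an adjusted p of 0.963. Taken by period, the linseed biopsies had a mean of 2.21 ± 0.13 (SD, n = 7) on oil and 2.56 ± 0.28 (SD, n = 6) on the control diet.

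MCL1 is a short-lived protective BCL2 protein. Its log2 intensity ran from 6.68 (cow 25) through a median of 7.33 to 8.76 (cow 12) in period I, and from 6.52 (cow 17) through 7.39 to 8.59 (cow 5) in period II. The groups overlapped almost completely, with 15 of 28 period I biopsies below the period II median. The change was -0.013 ± 0.11 (SE, n = 27 cows, limma, 95% interval -0.23 to 0.20, adjusted p = 0.939), and single cows ran from -1.11 (cow 1) to 1.20 (cow 11). Single cows thus moved both ways by more than the interval of the mean. With the prefix added to the cow the change was -0.39 (limma, adjusted p = 0.259), within the first prefix -0.83 (adjusted p = 0.167), within the second 0.13 (adjusted p = 0.874) and with the running number in place of the cow -0.75 (adjusted p = 0.0646). None of these was called, and they lie farther from 0 than the fit without array names. On the 4 oils the mean changes were -0.05 (rapeseed), -0.0018 (soybean), -0.16 (linseed) and 0.14 (mixture), none called, with adjusted p from 0.756 to 0.997 (limma). The cows on linseed oil were closer to each other (SD 0.20) than those on rapeseed oil or the mixture (SD 0.73 on both), a difference in spread that was not tested.

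CASP4 had the widest range of the 5 members. The highest biopsy stood 10.5-fold above the lowest, against 4.73-fold for MCL1, 3.94-fold for FAS, 3.31-fold for BAD and 2.59-fold for BCL2L1. In period I its log2 intensity had a lowest value of 5.07 (cow 21), a median of 6.70 and a highest value of 8.47 (cow 5), and in period II 5.69 (cow 25), 6.79 and 8.12 (cow 1). The periods overlapped, and the change was -0.074 ± 0.13 (SE, n = 27 cows, limma, 95% interval -0.33 to 0.18, adjusted p = 0.681), with 12 of 27 cows lower. By oil it was -0.14 (rapeseed), 0.10 (soybean), 0.0001 (linseed) and -0.24 (mixture), with adjusted p from 0.727 to 1 and no call. The change was -1.57 in cow 23 on rapeseed oil, -1.56 in cow 21 on linseed oil and 0.92 in cow 26 on soybean oil. Within rapeseed, soybean and linseed oil and the mixture alike, cows moved in both directions, on the mixture from -0.84 to 0.36. With the running number as a covariate and the cow left out, the CASP4 difference was -1.25 (limma, adjusted p = 0.0311) and was called. It was -1.17 within the first prefix (adjusted p = 0.141), 0.33 within the second (adjusted p = 0.69) and -0.17 with the prefix added to the cow (adjusted p = 0.715). The value of -1.25 depends on a common slope carried between periods that share no running number.

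FAS encodes the death receptor that binds FAS ligand on lymphocytes. Its log2 intensity ran from 4.20 (cow 27) through a median of 5.15 to 6.17 (cow 5) in period I, and from 4.38 (cow 27) through 5.11 to 5.97 (cow 10) in period II. The groups overlapped, and the change was 0.019 ± 0.13 (SE, n = 27 cows, limma, 95% interval -0.24 to 0.28, adjusted p = 0.923), with 14 of 27 cows lower. The mean change was 0.09 on rapeseed oil, 0.17 on soybean oil, 0.15 on linseed oil and -0.31 on the mixture, where 5 of 7 cows were lower (95% interval -0.83 to 0.21, limma, adjusted p = 0.636). No oil gave a call, and the test of a difference between oils had an adjusted p of 0.963. With the array names the FAS change was 0.11 with the prefix added to the cow, -0.15 and -0.16 within the first and the second prefix and -0.37 with the running number (limma, adjusted p from 0.301 to 0.828).

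**Figure D3:**
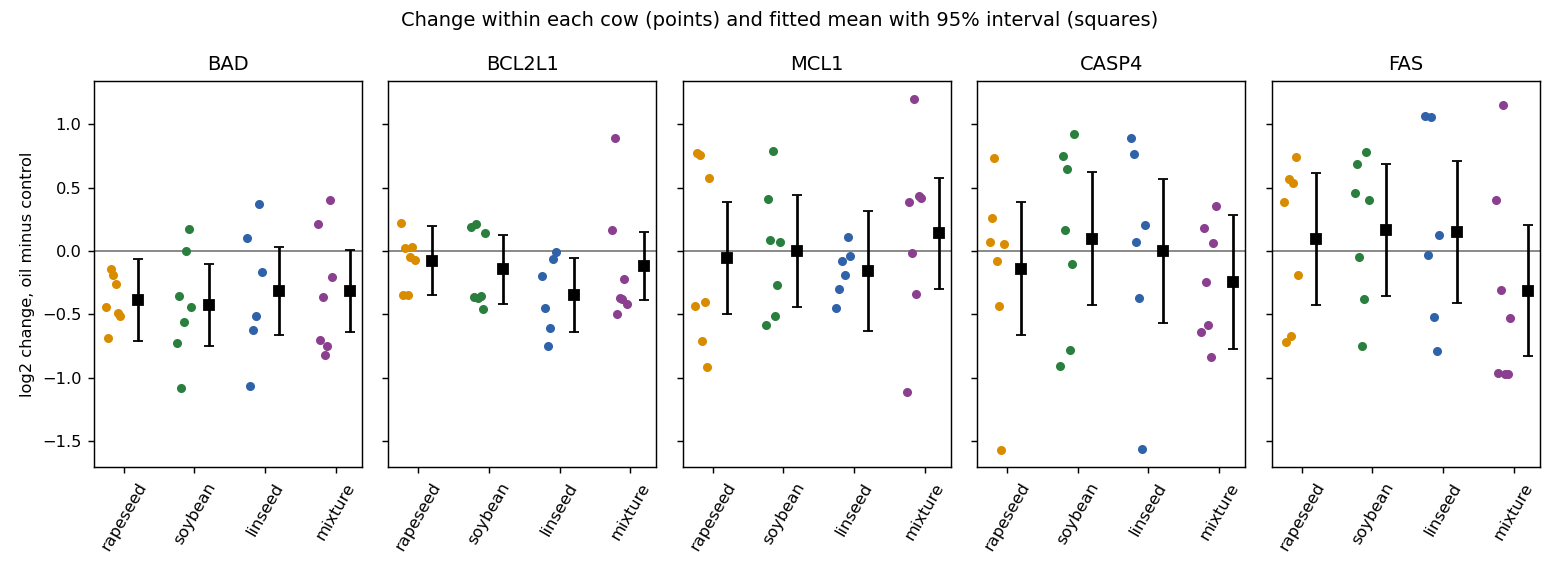
Log2 change within each cow, oil minus control (vertical axis), for the 5 measured members by period I diet (horizontal axis). Points are cows and squares the fitted means with 95% intervals; BAD was lower in all 7 rapeseed cows and BCL2L1 in all 6 linseed cows, and every gene's oil groups overlapped.

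For each oil, 0 of the 5 members were called, at a threshold of adjusted p under 0.05. Over all probe sets, 3.88% were called for rapeseed oil, 13.5% for soybean oil, 1.29% for linseed oil and 0.15% for the mixture, and with 5 genes these shares amount to less than 1 gene each. Without adjustment, 1 member had a p under 0.05 on rapeseed oil (BAD), 1 on soybean oil (BAD), 1 on linseed oil (BCL2L1) and 0 on the mixture. Between the oils, limma's moderated F called 0 of the 5 members for the difference of the change, 0 for levels in period I and 0 for levels in period II after the different oils. In each of these 3 tests 0% of all probe sets were called, while 486, 277 and 397 of the 10680 had an unadjusted p under 0.05, none of them a member. In period II, when all cows ate the same diet, the mean of CASP4 was 7.04 ± 0.52 after rapeseed oil, 6.71 ± 0.76 after soybean oil, 6.80 ± 0.75 after linseed oil and 7.01 ± 0.78 after the mixture (SD, n = 7, 7, 6 and 7). These 4 means differed by less than the SD of each group.

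For no member did a cow's level on oil have a relation to its level on the control diet that passed. Over the 21 cows without an array apart, Pearson's r between the periods was 0.0333 for BAD (permutation, adjusted p = 0.948), -0.0319 for BCL2L1 (adjusted p = 0.948), 0.314 for MCL1 (adjusted p = 0.415), 0.256 for CASP4 (adjusted p = 0.497) and -0.163 for FAS (adjusted p = 0.66). Spearman's rho was 0.0039 for BAD (adjusted p = 0.998), 0.0662 for BCL2L1 (adjusted p = 0.888), 0.404 for MCL1 (adjusted p = 0.219), 0.322 for CASP4 (adjusted p = 0.385) and -0.153 for FAS (adjusted p = 0.676), also by permutation. The adjustment was over the 145 relations computed.

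MCL1 and CASP4 were high in the biopsies that stood apart. All 7 lay above the median of their period for both genes, by 0.54 to 1.43 for MCL1 and by 0.78 to 1.77 for CASP4, and cows 12 and 5 held the highest MCL1 of each period. FAS was above its period median in 6 of the 7, by a median of 0.064, and BAD and BCL2L1 in 2 of 7 each. The 7 biopsies entered both periods (3 in period I and 4 in period II). Among them were the lowest milk protein mean and the highest means of fibroblast, macrophage and T cell marker genes of each period. Without the 6 cows, the change was 0.022 for MCL1 and -0.034 for FAS, each turned in sign and neither called.

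CASP4 also followed leukocyte markers in the biopsies that did not stand apart. Against the mean of the T and NK cell list (6 of 8 markers measured), r was 0.764 over 25 period I arrays (permutation, adjusted p = 0.0029, rho = 0.735, adjusted p = 0.00435) and 0.699 over 23 period II arrays (adjusted p = 0.00638, rho = 0.709, adjusted p = 0.00822). Without the 2 farthest arrays, r was 0.695 and 0.615. The 6 markers measured were CD3E, CD3D, CD3G, CD2, CD5 and CD8A, so none was particular to NK cells. Against macrophage and monocyte markers (8 of 10 measured), r was 0.695 in period I and 0.726 in period II (permutation, adjusted p = 0.00638 in both). The rho was 0.747 (adjusted p = 0.00435) and 0.698 (adjusted p = 0.00822), and r without the 2 farthest was 0.645 and 0.575. Within the 22 period I arrays of the first prefix, r was 0.707 with the T and NK list and 0.689 with the macrophage list, and all 23 period II arrays carried the second prefix. CASP4 was thus higher where both lists were higher, in each period. Diets were not separated in these relations.

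Other marker lists passed with CASP4 in 1 of the periods. In period I, r with neutrophil markers (5 of 7 measured) was 0.626 (permutation, adjusted p = 0.0167, rho = 0.668, adjusted p = 0.00822) and 0.553 without the 2 farthest arrays. In period II it was 0.546 (adjusted p = 0.0557, rho = 0.346, adjusted p = 0.306), and 0.205 without the 2 farthest, so that value rests on those arrays. In period II, r was 0.639 with B and plasma cell markers (permutation, adjusted p = 0.0161, rho = 0.589, adjusted p = 0.0344) and 0.576 without the 2 farthest. With adipocyte markers it was -0.659 (adjusted p = 0.0112, rho = -0.73, adjusted p = 0.00822) and -0.649 without them. Of the adipocyte markers measured only FABP4 was bright, with a mean log2 level of 11.3 in period II. The others lay between 1.37 (CIDEC) and 2.30 (RBP4), so the list is a weak measure of fat cells. In period I the same lists gave 0.315 (adjusted p = 0.354, rho = 0.265, adjusted p = 0.442) and -0.126 (adjusted p = 0.718, rho = -0.228, adjusted p = 0.514). Whether these relations differ between the periods was not tested.

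MCL1 moved with some of the same markers. Its r with the T and NK list was 0.611 in period I (permutation, adjusted p = 0.0198, rho = 0.589, adjusted p = 0.0279) and 0.514 in period II (adjusted p = 0.0674, rho = 0.649, adjusted p = 0.0217), with 0.604 and 0.554 without the 2 farthest arrays. With macrophage markers it was 0.682 in period I (adjusted p = 0.00638, rho = 0.541, adjusted p = 0.0533) and 0.382 in period II (adjusted p = 0.231, rho = 0.399, adjusted p = 0.206), with 0.528 and 0.339 without the 2 farthest. Within the first prefix in period I, r was 0.689 and 0.684. In period I, 2 other lists passed with MCL1 by r but not by rho. For neutrophil markers r was 0.563 (permutation, adjusted p = 0.0463, rho = 0.55, adjusted p = 0.0504). For luminal epithelial markers r was 0.582 (adjusted p = 0.0285, rho = 0.29, adjusted p = 0.386), and 0.182 without the 2 farthest arrays. MCL1 and CASP4 themselves had r of 0.544 in period I (permutation, adjusted p = 0.0516, rho = 0.499, adjusted p = 0.0746) and 0.611 in period II (adjusted p = 0.021, rho = 0.643, adjusted p = 0.0217). The mean log2 level of the T and NK list lay between 2.85 and 4.46 over all period I arrays and between 2.85 and 4.55 in period II, and that of the macrophage list between 3.97 and 5.93 and between 4.25 and 6.57. The part of leukocyte content in the levels of CASP4 and MCL1 was not tested.

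**Figure D4:**
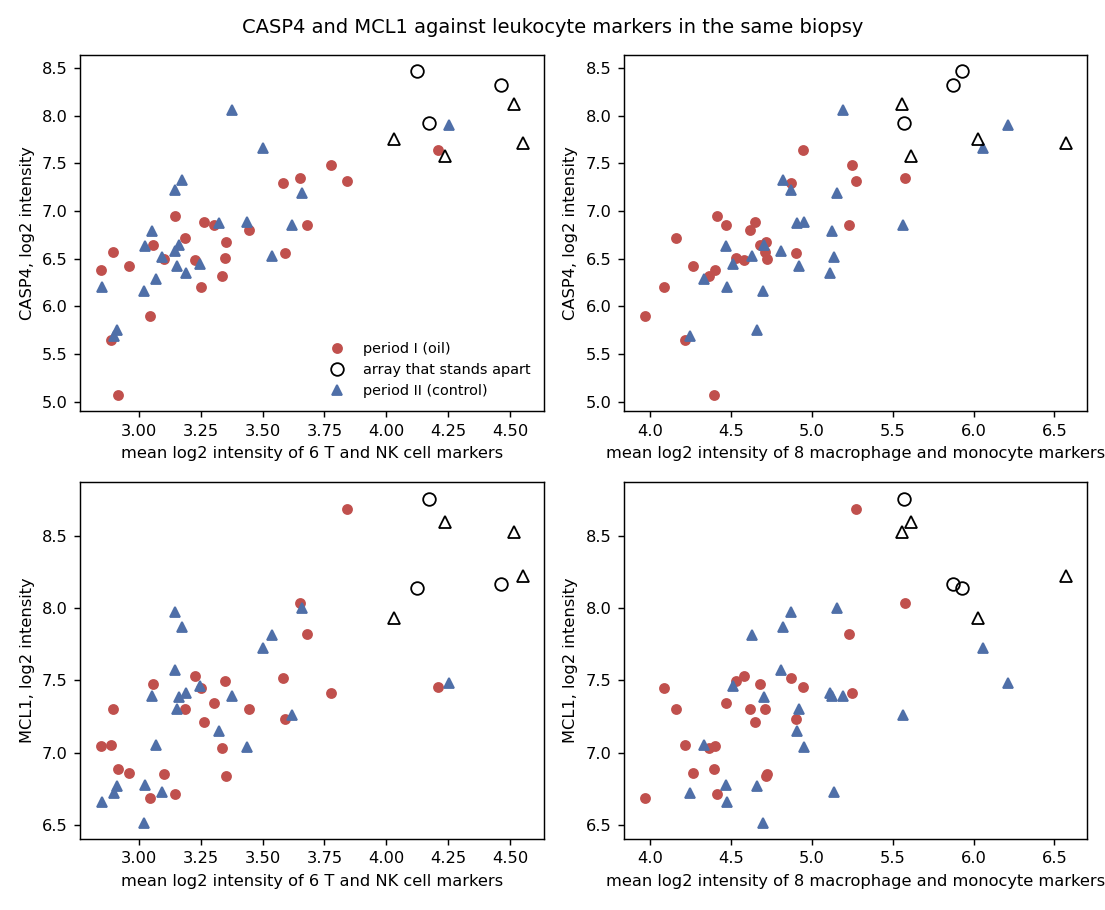
Log2 intensity of CASP4 and MCL1 (vertical axes) against the mean log2 intensity of leukocyte marker lists in the same biopsy (horizontal axes), by period. CASP4 rises with the T and NK cell list (r = 0.764 in period I and 0.699 in period II) and with the macrophage list (0.695 and 0.726) over the arrays that do not stand apart.

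FAS had no relation with either of these lists that passed, and moved with the erythrocyte list (4 of 5 markers measured). Its r was 0.541 in period I (permutation, adjusted p = 0.043, rho = 0.495, adjusted p = 0.0746) and 0.653 in period II (adjusted p = 0.0116, rho = 0.614, adjusted p = 0.0279), with 0.462 and 0.528 without the 2 farthest arrays and 0.545 within the first prefix in period I. The mean log2 level of this list was low, 1.47 to 2.83 in period I and 1.39 to 2.16 in period II. Of the relations computed for BCL2L1, none passed by both r and rho. In period I, adipocyte markers passed by r alone (0.591, permutation, adjusted p = 0.0285, rho = 0.402, adjusted p = 0.189), and r was 0.346 without the 2 farthest arrays. Fibroblast and matrix markers passed by rho alone (-0.608, adjusted p = 0.025, r = -0.453, adjusted p = 0.129).

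The genes whose within-cow change was most like each member's were taken from 6635 named genes over the 27 cows, as a description across arrays that share their normalization. For MCL1 they were THBS1 (thrombospondin 1, r = 0.829) and MEF2A (a transcription factor, r = 0.800), and for CASP4 DDB2 (a DNA damage recognition protein, r = 0.797) and C1QA (a complement chain made by macrophages, r = 0.717, also in the macrophage list). FAS was most like LOC506921 (r = 0.706) and GNAI1 (a G protein subunit, r = 0.701). BAD was most like BoLA (r = 0.655), a histocompatibility antigen gene, and BANF1 (r = 0.655), which binds DNA at the nuclear envelope. BCL2L1 was most like PAG4 (r = 0.642), a pregnancy-associated glycoprotein, and TNNT2 (r = 0.602), cardiac troponin T. In the 21 cows without an array apart the r of these 10 pairs ran from 0.628 to 0.792. These cows are among the 27 by which the pairs were picked, so that range is no separate test of them. For levels in place of changes, r ran from 0.404 (FAS with GNAI1) to 0.854 (MCL1 with THBS1) in period I. In period II it ran from 0.0721 (BCL2L1 with PAG4) to 0.81 (MCL1 with THBS1), with 0.171 for BAD with BoLA.

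The partners of BAD and BCL2L1 in the mitochondrial route showed calls both ways. Of 12 other pro-apoptotic BCL2 family genes 5 were measured, with 1 higher and 1 lower, a median change of 0.11. BNIP3, a hypoxia-responsive BH3-only protein of mitophagy, fell by 0.38 ± 0.078 on the log2 scale (SE, n = 27 cows, limma, adjusted p = 0.000407, lower in 24 of 27). BCL2L14 rose by 0.14 ± 0.046 (adjusted p = 0.0153), from a level near 2, and BOK (0.11) and BNIP3L (0.09) were not called. Of 4 other anti-apoptotic genes, BCL2L2 and BCL2A1 were measured, with changes of -0.01 and -0.02 and no call. Over all probe sets the shares called were 18.8% higher and 15.6% lower, and these counts are read against them.

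Of 21 other caspase, apoptosome and inflammasome genes 10 were measured, 1 higher and 2 lower, with a median change of -0.019. DFFB, the nuclease that cuts DNA in dying cells, fell by 0.27 ± 0.057 (SE, n = 27 cows, limma, adjusted p = 0.000562), and HTRA2, a mitochondrial protease that blocks inhibitors of apoptosis, fell by 0.31 ± 0.095 (adjusted p = 0.0118). CASP6, an effector caspase, rose by 0.19 ± 0.068 (adjusted p = 0.0295). CASP6 was not called without the 6 cows (0.15, adjusted p = 0.131), and IL1B, a cytokine matured by inflammatory caspases, had a change of 0.087 (adjusted p = 0.386).

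Of 20 death receptor signalling genes 12 were measured, 2 higher and 2 lower, with a median change of -0.081. TNFRSF1A, the main TNF receptor on most cells, fell by 0.66 ± 0.093 (SE, n = 27, limma, adjusted p = 6.52e-06), with a lower value in 25 of 27 cows. TNFRSF1B, the other TNF receptor, rose by 0.32 ± 0.069 (adjusted p = 0.000735). TRADD, the adaptor of TNFRSF1A, rose by 0.33 ± 0.085 (adjusted p = 0.00396), and RIPK1, a kinase of the same complex, fell by 0.21 ± 0.078 (adjusted p = 0.0377), a call lost without the 6 cows (-0.16, adjusted p = 0.154). The other 8 measured genes of the list were not called.

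Of 16 inhibitors of apoptosis and survival adaptors 9 were measured, 0 higher and 3 lower, with a median change of -0.052. BAG3, a co-chaperone of HSP70, fell by 0.74 ± 0.16 (SE, n = 27 cows, limma, adjusted p = 0.000638). BIRC3, a ubiquitin ligase of TNF signalling, fell by 0.45 ± 0.13 (adjusted p = 0.00673) and BAG6 by 0.35 ± 0.063 (adjusted p = 9.95e-05), while BAG5 (0.14) was not called. Of 15 stress response genes and mitochondrial partners 9 were measured, 2 higher and 3 lower, with a median change of -0.12. AKT1, a survival kinase that phosphorylates BAD, fell by 1.08 ± 0.20 (adjusted p = 0.000121, lower in 25 of 27). GADD45B fell by 0.51 ± 0.16 (adjusted p = 0.0119), a call lost without the 6 cows (-0.33, adjusted p = 0.113), and GADD45A rose by 0.37 ± 0.12 (adjusted p = 0.0153). MTCH2, the mitochondrial receptor of BID, rose by 0.25 ± 0.092 (adjusted p = 0.0337).

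Involution genes, which in mice rise when milk removal stops, were measured for 13 of 15, with 1 higher and 7 lower and a median change of -0.37. The other 5 were not called. Over all probe sets, 18.8% were called higher and 15.6% lower. CTSB, a lysosomal protease, fell by 0.46 ± 0.086 (SE, n = 27 cows, limma, adjusted p = 0.000168). CEBPD fell by 0.53 ± 0.11 (adjusted p = 0.000741), CEBPB by 0.58 ± 0.13 (adjusted p = 0.00152) and lactoferrin (LTF) by 0.63 ± 0.15 (adjusted p = 0.00204), each lower in 22 of 27 cows. LIF was the gene called higher, by 0.19 ± 0.057 (limma, adjusted p = 0.00974). CTSL was higher in 21 of 27 cows but was not called (0.70 ± 0.29, limma, adjusted p = 0.057). The list's mean was lower on oil in 20 of 27 cows, against 22 for the stress response list, 23 for the inhibitors of apoptosis and 17 for the mean over all probe sets. Period II, with the higher values, was also the later stage of lactation.

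Dim signals, the arrays apart and the array names also touch these lists. Mean log2 levels in periods I and II were 2.41 and 2.80 for BNIP3 and 2.49 and 2.76 for DFFB. They were 2.40 and 2.75 for BAG6 and 2.49 and 2.17 for TNFRSF1B. Among probe sets with a mean log2 value of at least 4, 0 of 3 pro-apoptotic genes were called. Higher and lower calls were then 1 and 1 of 5 in the caspase list, 0 and 2 of 7 for death receptors and 0 and 2 of 5 for inhibitors. Without the 6 cows, the calls higher and lower were 1 and 1 for pro-apoptotic genes, 0 and 0 for anti-apoptotic genes, 0 and 2 for the caspase list, 2 and 2 for death receptors, 0 and 4 for inhibitors, 2 and 2 for the stress response list and 2 and 7 for involution genes. With the prefix added to the cow, an estimate from 5 cows, the calls were 0 higher and 0 lower in both BCL2 lists and the caspase list, 0 and 1 for death receptors, 0 and 1 for inhibitors, 1 and 0 for the stress response list and 0 and 5 for involution genes. Of the called genes named from these lists for the smallest p, CTSB (-0.89, adjusted p = 0.00295), BAG6 (-0.66, adjusted p = 0.00295), CEBPD (-0.84, adjusted p = 0.0297) and TNFRSF1A (-0.70, adjusted p = 0.0329) were still called in that fit (limma). Of the 13 measured involution genes, 0 were called higher and 2 lower within the first prefix, and 0 and 0 within the second prefix and with the running number in place of the cow, so all 7 lower calls were lost in the last 2 fits. The median change of the list stayed below 0 in these fits. It was -0.66 within the first prefix, -0.42 within the second and -0.32 with the running number, against -0.37 in the main fit. With the running number, AKT1 was 0.69 (adjusted p = 0.198) and not called. The plot of the change under each fit shows the same for the members.

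**Figure D5:**
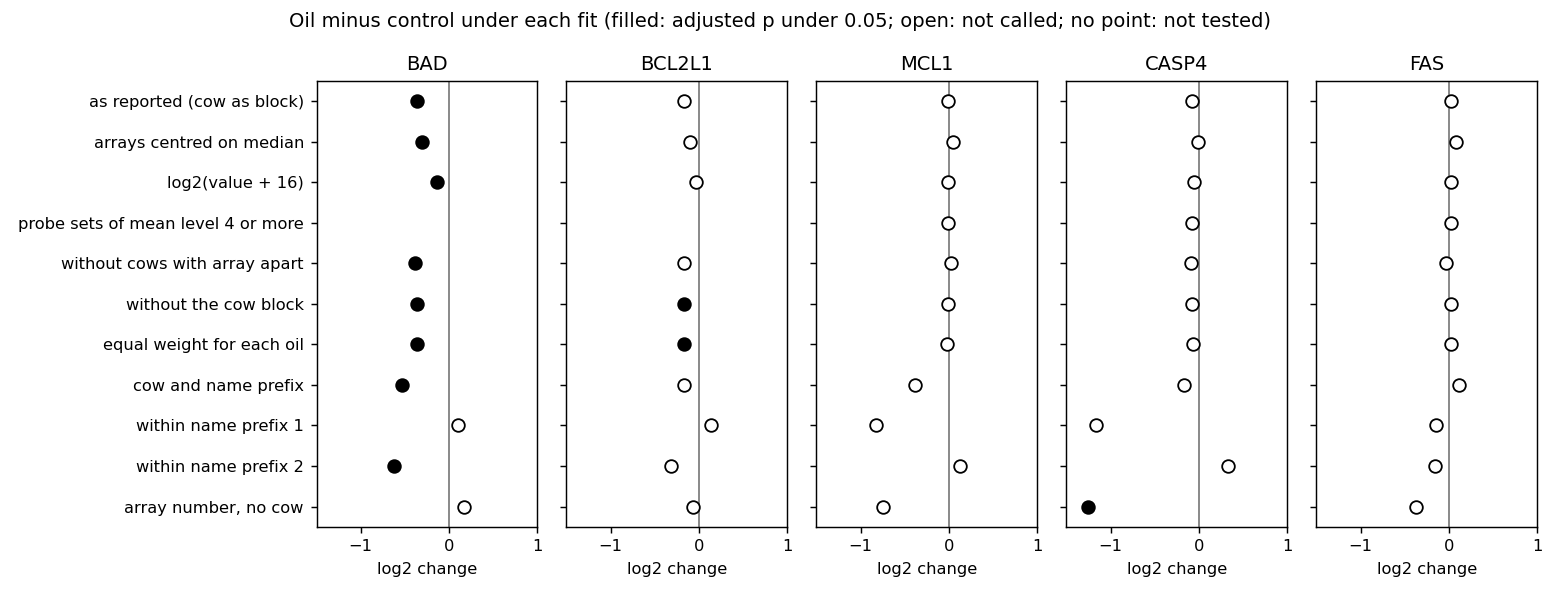
Log2 change, oil minus control (horizontal axis), for each measured member under each fit (vertical axis). Filled points were called at an adjusted p under 0.05, open ones were not, and a missing point was not tested. BAD lies below 0 except within the first prefix (0.10) and with the running number as covariate (0.17), and CASP4 was called with the running number alone (-1.25).

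Several markers of tissue make-up moved between the periods beside these genes. Called as lower on oil were 4 of 8 endothelial, 5 of 8 fibroblast and matrix, 4 of 7 luminal epithelial, 2 of 8 macrophage and 1 of 5 myoepithelial markers, and 0, 0, 0, 0 and 0 of them as higher. Of the 6 milk protein genes 0 were called in either direction, nor were any of 5 neutrophil or 5 B and plasma cell markers. The T and NK list had 1 marker higher and 1 lower of 6, the adipocyte list 2 and 1 of 6 and the erythrocyte list 1 and 0 of 4. The part of these shifts in the changes of BAD, AKT1 or the involution genes was not tested.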

How the data were processed

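Total RNA of each biopsy (2 micrograms) was hybridised to a 1-colour Affymetrix bovine array. Each deposited value is a linear intensity of a probe set. RMA and GCRMA appear in the submitters' processing notes, and what each served is not given in the sources used here. Log2 of the deposited intensities was taken, with no further scaling. The table held 11495 probe sets: 112 were controls and 703 were merged with another of identical values, which left 10680. Members and lists were matched through RefSeq accessions in the deposited identifiers.

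The labels gave cow, period and diet. The change (period I minus period II) was fitted in R 4.3.3 by limma 3.58.1, and the cow entered as a block. The cow was left out of the fits within a prefix, with the running number and with no replicate block. P-values were two-sided, adjusted by Benjamini-Hochberg over all 10680 probe sets, and called at an adjusted p under 0.05. The cow pairs the arrays, since both come from 1 animal: the median correlation of deviations was 0.192 within a cow (from -0.344 to 0.665, over 0.1 in 18 of 27) and 0.0174 between cows. Relations across arrays were tested by permutation (100000 draws) and adjusted over 145 relations, leaving out the 7 arrays whose mean correlation with the others was under 0.96.

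Named were every measured member, up to 4 genes per pathway list with the smallest p, and the 2 genes most like each member. Marker counts, LIF and CTSL were added after their values were seen. Of the pathway lists, 2 genes are not reported here and were left out of every list count. The members and lists were chosen with earlier results of these data known. Alternatives covered scaling, dim values, arrays apart, the cow block, array-name prefix, array number and weighting of oils; leaving out each cow was added after the data were seen. The fits were tested on simulated data. The number of arrays limits the precision. The files name no genome build, so no coordinates are given.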

Additional observations from a re-analysis of the deposited data

Results flagged for a closer look

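Of the 60 groups of 6 or 7 values tested across the 5 members, 3 held a value far from the others of its group by Dixon's criterion, which chance gives in about 1 of 20 groups. BCL2L1 was 3.29 in period I of cow 3 on the oil mixture, where the other cows lay between 1.92 and 2.39. BCL2L1 was 2.16 in period II of cow 4, after rapeseed oil, where the others lay between 2.37 and 2.52. CASP4 was 7.64 in period I of cow 9 on soybean oil, where the others lay between 6.32 and 6.88. None of the 3 cows had an array apart.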

How the results depend on the processing

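The count of members called, 1 of 5, became 0 among probe sets with a mean log2 value of at least 4 (BAD and BCL2L1 then had no value) and 0 within the first prefix, and it was 2 with no replicate block and 2 with equal weight for each oil. Leaving out each cow gave 1 to 2, with BCL2L1 called without cow 1, 2, 3, 4, 12, 13 or 26. BCL2L1 was called at -0.17 with no replicate block and at -0.17 with equal weight, CASP4 at -1.25 with array number. The block changed no other member's call. Leaving out each cow, the change ran from -0.39 to -0.34 for BAD, -0.21 to -0.14 for BCL2L1, -0.060 to 0.029 for MCL1, -0.11 to -0.016 for CASP4 and -0.024 to 0.057 for FAS.

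Signs turned in the following values; the cause was not tested. Within the first prefix: BAD 0.10, BCL2L1 0.14, FAS -0.15, BOK -0.57, BNIP3L -0.84, BCL2L2 0.15 and GADD45A -0.44. Within the second prefix: MCL1 0.13, CASP4 0.33, FAS -0.16, BCL2A1 0.24 and BAG5 -0.019. With array number: BAD 0.17, FAS -0.37, BOK -0.15, BNIP3L -0.48, CASP6 -0.47, TRADD -0.017, GADD45A -0.58, GADD45B 0.29, AKT1 0.69 and CEBPB 0.047. With the prefix added to the cow: BOK -0.34, BNIP3L -0.46, BCL2L14 -0.0022, BCL2A1 0.26, CASP6 -0.034 and GADD45A -0.18. With each array centred: MCL1 0.049, BCL2L2 0.050, BCL2A1 0.045 and, on soybean oil, MCL1 0.079. Without the cows with an array apart: MCL1 0.022, FAS -0.034, MCL1 on soybean oil 0.096 and CASP4 on linseed oil -0.13.

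Over all probe sets, 3669 calls became 1520 of 4441 with the filter, 1645 with the prefix added, 597 and 403 within the first and the second prefix and 715 with array number. Centring moved the share of calls that were higher from 54.6% to 71.9%, and the median of all probe sets from 0.029 to 0.091. For single oils, counts moved by over 1.5 times for rapeseed (414 to 157, no replicate block; 271, filter), soybean (1443 to 753, filter), linseed (138 to 27, no replicate block; 53, without the cows apart; 83, filter) and the mixture (16 to 67, without the cows apart; 28, with 16 added). Per-oil changes within a prefix set could not be fitted. BAD and BCL2L1 were dim, which limits their fold changes.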
